A study of Mus musculus with 30 samples.

Results

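The 20 colons of mice given the carcinogen azoxymethane (AOM) and the irritant dextran sulfate sodium (DSS) were divided by how much Notum RNA their scrapings held, and the 2 classes were compared across all genes. Libraries were selected on their measured Notum value, in CPM, which is 1e6 times the Notum count over the total count of the library. With 1 CPM or more as Notum-high and less as Notum-low, 9 AOM/DSS libraries were Notum-high and 11 were Notum-low, of 30 libraries in the series. The other 10 libraries, from vehicle-treated mice, were in neither class and are given as background. The classes are not groups of the study, no mouse was treated to raise Notum, and the same libraries that were ranked by Notum were compared. A p-value here measures whether a gene moved together with Notum among mice of 1 study group, not the effect of a treatment.

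All mice were wild-type C57BL/6J, 5 to 10 weeks old at the start, and each library came from 1 mouse. AOM was injected once at 10 mg/kg and DSS followed at 2.5% in the drinking water in 3 cycles, and females and males were killed at 9 or 15 weeks, which made 4 AOM/DSS groups of 5 mice. Vehicle mice received saline, 5 of each sex, and were killed at 9 weeks. The scraping was meant to lift the epithelial layer off the lamina propria. The study describes the sequenced tissue as colon epithelium and not tumour, and the labels give no tumour content for any library. It also states that every mouse had tumours at 15 weeks, larger in males than in females. Notum-low at 15 weeks therefore does not mean a mouse without tumours. Notum-high and Notum-low libraries numbered 2 and 3 in females at 9 weeks, 2 and 3 in females at 15 weeks, 3 and 2 in males at 9 weeks, and 2 and 3 in males at 15 weeks, so every group held both classes.

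Wnt ligands are lipid-modified secreted proteins that bind Frizzled receptors with the co-receptors LRP5 and LRP6, which stabilizes beta-catenin so that it can enter the nucleus and drive genes through the TCF and LEF DNA-binding proteins. In the healthy colon the pathway is most active at the crypt base, where it maintains stem cells, and in AOM-induced tumours it is often switched on by mutation of beta-catenin itself. Among its targets are its own inhibitors. Notum is one of them, an extracellular enzyme that removes the lipid from Wnt ligands. Nkd1, Wif1 and Prox1 were named with Notum as marks of tissue with an active Wnt pathway. They were chosen with earlier results of these data known, so their levels describe the classes and cannot test the class name. They do not show whether a scraping held tumour, which was not tested.

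In the Notum-high libraries Notum (ENSMUSG00000042988, GRCm38 chr11:120653788-120661175, minus strand) was 34.1 CPM in male 15-week replicate 5, 20.1 in male 9-week replicate 4, 12.7 in male 9-week replicate 1, 10.6 in female 9-week replicate 2, 8.75 in male 15-week replicate 2, 7.25 in male 9-week replicate 3, 3.50 in female 15-week replicate 5, 3.02 in female 15-week replicate 3 and 1.37 in female 9-week replicate 5. The 11 Notum-low libraries ran from 0 to 0.999 CPM with a median of 0.177, and 2 of them, female 9-week replicate 4 and male 9-week replicate 2, were at 0, which allows up to 3 counts. Vehicle libraries ran from 0.108 to 0.563 CPM with a median of 0.220, all under the threshold and inside the range of the Notum-low libraries. These values chose the classes, so they are given with no test. Just inside the threshold lay female 9-week replicate 5 with 28 Notum counts, and just outside lay male 15-week replicate 3 with 27 counts and 0.999 CPM. Total counts per library were 20393766 to 30806392 in the Notum-high and 14619526 to 29293138 in the Notum-low class, so 1 CPM was between 14.6 and 30.8 counts.

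**Figure D1:**
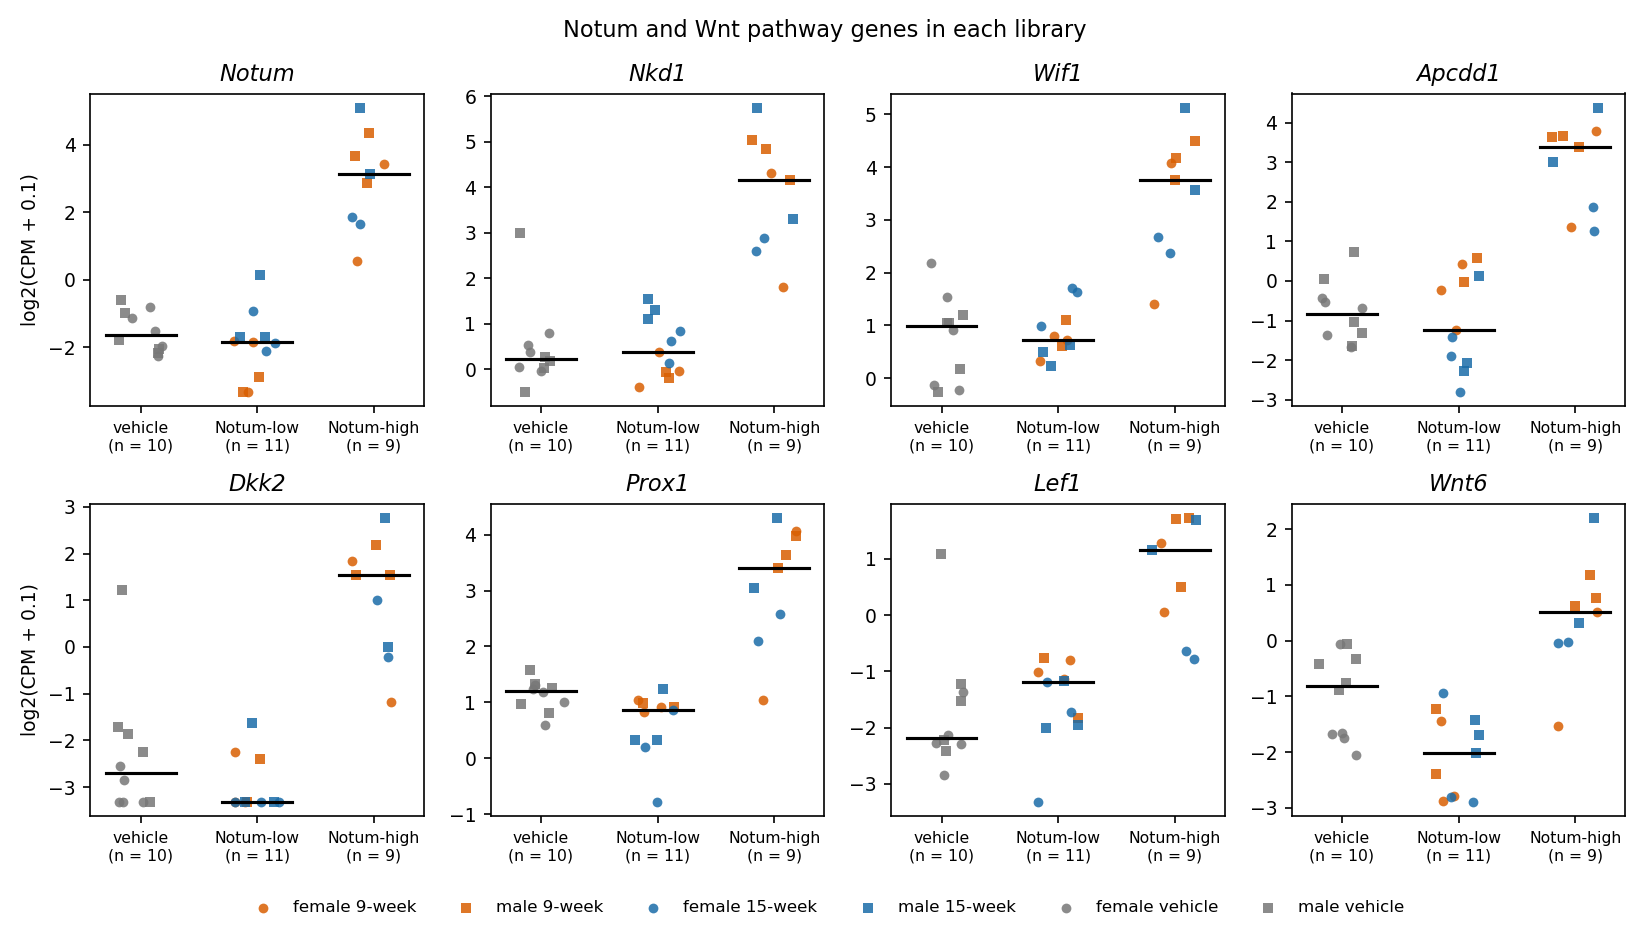
Level of Notum and 7 Wnt pathway genes in each of the 30 libraries, as log2(CPM + 0.1), in vehicle, Notum-low and Notum-high colons, with a bar at the median of each class, circles for females and squares for males. Notum chose the classes and so must separate, while in the panels of Nkd1, Apcdd1 and Dkk2 every Notum-high library also lies above every Notum-low library.

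With Notum left out, 58 of 15747 tested genes were higher in Notum-high colons (0.368%), and none was lower. Calls came from the quasi-likelihood test of edgeR with the study group as a covariate, at a Benjamini-Hochberg adjusted p under 0.05 over all genes and a log2 fold change beyond 0.4. At an unadjusted p under 0.05, 436 genes were higher and 172 lower, and DESeq2 called 93 higher and 0 lower. The 58 log2 fold changes ran from 1.25 to 5.76 with a median of 3.19, while the median over all tested genes was 0.002. All 58 had a higher mean in the Notum-high libraries of each of the 4 study groups, and for 27 of them every Notum-high library exceeded every Notum-low library within each group. Leaving out male 15-week replicate 5, the library with the most Notum, brought the count to 38, and leaving out female 9-week replicate 5, the Notum-high library with the least, brought it to 95. With the mean log2 CPM of 14 mesenchyme markers as a covariate 34 of the 58 stayed called, and with that of 10 epithelial markers 32. All 58 fold changes stayed above 0 in both fits, with medians of 2.79 and 2.97 on the log2 scale.

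Most of the 58 were scarce RNAs. In FPKM, the authors' fragments per kilobase of transcript scaled to library size, 56 had a median under 1 in the Notum-low class and 41 also in the Notum-high class, and with a mean of at least 1 FPKM required in either class 19 genes were called. In 16 genes the median Notum-low library held no read, so their fitted fold changes depend on the prior count of the fit. For 40 of the 58 the median Notum-high library exceeded all 10 vehicle libraries. In bulk tissue, fewer cells of a type and less RNA per cell cannot be told apart, for any gene below.

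Over all 20 libraries, with no regard to group, every Notum-high library lay above every Notum-low library for 7 of 15747 genes (0.0445%). Genes with the classes apart in the opposite direction were not counted. Of the 7 genes, 6 were among the 58: Apcdd1, Nkd1, Dkk2, Slc30a2, Bex1 and Morn4. The other was Mrps9, a gene of the mitochondrial ribosome named after its values were seen, with a log2 fold change of 0.19 and an edgeR adjusted p of 0.877.

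Inhibitors of the Wnt pathway gave 4 of the 58 genes. In a list of 16 such inhibitors, written with earlier results of these data known, 12 were tested and Nkd1, Wif1, Apcdd1 and Dkk2 rose. Over all tested genes 58 of 15747 rose (0.368%). At an unadjusted edgeR p under 0.05, 6 of the 12 were higher, against 436 of all 15747 tested genes. Of the 12 fold changes 11 were above 0. The list median was 0.30.

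Nkd1, a cytoplasmic inhibitor that binds Dishevelled (ENSMUSG00000031661, chr8:88521344-88594887, plus strand), ran from 3.38 to 53.7 CPM with a median of 17.8 in the Notum-high and from 0.665 to 2.80 CPM with a median of 1.20 in the Notum-low libraries. The highest Notum-low library, male 15-week replicate 4, stayed under the lowest Notum-high one, female 9-week replicate 5. The log2 fold change was 3.58 ± 0.40 (SE, edgeR adjusted p = 1.12e-04), and the mean was 3.23 ± 2.61 FPKM (SD, n = 9) against 0.222 ± 0.108 FPKM (SD, n = 11). Vehicle libraries ran from 0.607 to 7.91 CPM with a median of 1.06, with 9 of 10 at 1.62 or less and male vehicle replicate 1 at 7.91.

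Wif1 is a secreted protein that captures Wnt ligands (ENSMUSG00000020218, chr10:121033960-121100650, plus strand). It ran from 2.55 to 34.8 CPM with a median of 13.4 in the Notum-high class and from 1.07 to 3.17 CPM with a median of 1.56 in the Notum-low class. All but 1 of the Notum-high libraries lay above all Notum-low ones, the exception being female 9-week replicate 5 at 2.55 CPM. The log2 fold change was 2.85 ± 0.40 (SE, edgeR adjusted p = 9.60e-04), from 0.577 ± 0.261 FPKM (SD, n = 11) to 4.60 ± 3.03 FPKM (SD, n = 9). Vehicle libraries ran from 0.736 to 4.42 CPM with a median of 1.88, so the highest exceeded the lowest Notum-high library.

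Apcdd1, a membrane protein that binds Wnt ligands and LRP5 (ENSMUSG00000071847, chr18:62922327-62953195, plus strand), was low in the Notum-low libraries, from 0.0436 to 1.39 CPM with a median of 0.326. In Notum-high libraries it ran from 2.30 to 20.7 CPM with a median of 10.3. No library overlapped, and the log2 fold change was 3.86 ± 0.41 (SE, edgeR adjusted p = 9.89e-05). Vehicle libraries ran from 0.213 to 1.57 CPM with a median of 0.458, under every Notum-high library.

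Dkk2, a secreted ligand of LRP5 and LRP6 (ENSMUSG00000028031, chr3:132085292-132180304, plus strand), was at 0 in 8 of the 11 Notum-low libraries and at most 0.222 CPM in the others. All 9 Notum-high libraries held it, from 0.343 to 6.68 CPM with a median of 2.79. Its log2 fold change of 5.76 ± 0.65 (SE, edgeR adjusted p = 1.25e-04) was the largest of the 58. The vehicle libraries reached 2.24 CPM in male vehicle replicate 1 and 0.205 in the other 9.

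Other inhibitors differed by less. Axin2, a scaffold of the complex that destroys beta-catenin and a general Wnt target, ran from 18.6 to 43.7 CPM with a median of 33.8 in Notum-high and from 14.8 to 35.0 CPM with a median of 23.1 in Notum-low libraries, with a log2 fold change of 0.41 ± 0.11 (SE, edgeR adjusted p = 0.288). It was not called, and vehicle libraries at a median of 35.1 CPM lay as high as the Notum-high ones at 33.8. Dkk3 had a log2 fold change of 1.31 ± 0.37 (SE, edgeR adjusted p = 0.338). The ubiquitin ligases Rnf43 and Znrf3, which remove Frizzled from the cell surface, had log2 fold changes of 0.06 ± 0.11 and -0.03 ± 0.16 (SE) at medians of 43.8 and 12.3 CPM in the Notum-high class. Nkd2, Dkk1, Dkk4 and Sostdc1 had too few counts to be tested, and Dkk1 had no count in any of the 20 libraries.

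Transcription factors and effectors downstream of Wnt gave 3 called genes, Prox1, Lef1 and Tnfrsf19, out of 20 listed and tested. Their list median was 0.03, and 7 of 20 had an unadjusted edgeR p under 0.05, all higher. Over all 15747 tested genes, 58 were called (0.368%) and 436 were higher at that unadjusted p. Widely used targets were among the listed genes with no call.

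Prox1, a homeobox factor known from intestinal tumours (ENSMUSG00000010175, chr1:190118035-190170714, minus strand), ran from 1.96 to 19.6 CPM with a median of 10.4 in Notum-high and from 0.480 to 2.26 CPM with a median of 1.71 in Notum-low libraries. Female 9-week replicate 5 at 1.96 CPM was the 1 Notum-high library inside the Notum-low range, and the other 8 held 4.19 CPM or more. The log2 fold change was 2.58 ± 0.30 (SE, edgeR adjusted p = 1.84e-04), with 0.983 ± 0.548 FPKM (SD, n = 9) against 0.135 ± 0.0475 FPKM (SD, n = 11). Vehicle libraries ran from 1.40 to 2.88 CPM with a median of 2.21, a range that overlapped the Notum-low one and not the other 8 Notum-high libraries.

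Lef1, a DNA-binding partner of beta-catenin (ENSMUSG00000027985, chr3:131110471-131224356, plus strand), ran from 0.483 to 3.20 CPM with a median of 2.12 in Notum-high and from 0 to 0.492 CPM with a median of 0.336 in Notum-low libraries. Female 15-week replicate 5 at 0.483 CPM was the 1 Notum-high library inside the Notum-low range, and female 15-week replicate 3 at 0.538 lay just above it. The log2 fold change was 2.48 ± 0.40 (SE, edgeR adjusted p = 0.00321). Lef1 in vehicle libraries had a median of 0.121 CPM and reached 2.03 in male vehicle replicate 1, inside the Notum-high range. Its relatives Tcf7 and Tcf7l2 had log2 fold changes of 0.42 ± 0.17 and -0.13 ± 0.08 (SE, edgeR adjusted p = 0.984 for both).

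Tnfrsf19, a receptor of the tumour necrosis factor family found on crypt base cells (ENSMUSG00000060548, chr14:60963834-61046855, minus strand), ran from 2.26 to 6.82 CPM with a median of 4.26 in Notum-high and from 0.476 to 2.39 CPM with a median of 1.55 in Notum-low libraries. It had a log2 fold change of 1.58 ± 0.28 (SE, edgeR adjusted p = 0.00823). Vehicle colons ran from 1.04 to 5.28 CPM with a median of 2.48 and overlapped both classes. Of the other targets, Myc had -0.07 ± 0.17, Ccnd1 -0.23 ± 0.15, Cd44 0.03 ± 0.15, Ephb2 -0.06 ± 0.11 and Sox9 -0.33 ± 0.18 as log2 fold change and SE, none called. Sp5, which was scarce at a median of 0.651 CPM in the Notum-high class, had 1.65 ± 0.57 (SE, edgeR adjusted p = 0.826). Mmp7, a matrix protease made by intestinal tumour epithelium, missed the threshold with 2.52 ± 0.55 (SE, edgeR adjusted p = 0.0521), at a median of 27.3 CPM in Notum-high, 4.48 in Notum-low and 0.906 in vehicle libraries.

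Of 19 Wnt ligands, R-spondins and Wnt secretion factors 8 were tested and 1 was called, Wnt6. Of 22 receptors and secreted antagonists 18 were tested and 1 was called, Lgr6. The share over all tested genes was 58 of 15747 (0.368%). At an unadjusted edgeR p under 0.05, 2 of the 8 and 2 of the 18 were higher, against 436 of all tested genes. Wnt6 (ENSMUSG00000033227, chr1:74771892-74785322, plus strand) ran from 0.245 to 4.50 CPM with a median of 1.33 in Notum-high and from 0.0341 to 0.420 CPM with a median of 0.148 in Notum-low libraries, with a log2 fold change of 2.93 ± 0.46 (SE, edgeR adjusted p = 0.00271). Its vehicle libraries, from 0.140 to 0.861 CPM with a median of 0.465, overlapped both classes. Lgr6, a receptor for the R-spondins that strengthen Wnt signals (ENSMUSG00000042793, chr1:134983301-135105276, minus strand), stayed at or under 0.148 CPM in the Notum-low libraries. It ran from 0.0805 to 2.79 CPM with a median of 0.490 in the Notum-high ones, with a log2 fold change of 4.14 ± 0.52 (SE, edgeR adjusted p = 3.22e-04). Lgr6 in vehicle libraries had a median of 0 and reached 0.463 CPM in male vehicle replicate 1, inside the Notum-high range. Its relative Lgr4 had a log2 fold change of -0.07 ± 0.15 (SE), with medians of 221 CPM in the Notum-high and 218 in the Notum-low class. Fzd10 was the Frizzled receptor with the lowest p, at 1.34 ± 0.35 (SE, edgeR adjusted p = 0.221). The ligand Wnt10a had 0 to 45 counts with a median of 10 in Notum-high and 0 to 5 with a median of 0 in Notum-low libraries and was too scarce to be tested.

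None of 13 tested stem cell genes was called, and neither was any of 17 tested parts of the beta-catenin complex. Of all 15747 tested genes 58 were called (0.368%), so no call in lists this short says little. At an unadjusted edgeR p under 0.05, 3 of the 13 stem cell genes were higher, against 436 of all tested genes. In the complex list 1 of the 17 was lower at that p, against 172 of all tested genes. Lgr5, which marks crypt base stem cells, ran from 4.03 to 12.8 CPM with a median of 8.54 in Notum-high and from 0.342 to 7.1 CPM with a median of 2.96 in Notum-low libraries, with a log2 fold change of 1.14 ± 0.34 (SE, edgeR adjusted p = 0.463). Vehicle libraries ran higher, from 7.23 to 19.6 CPM with a median of 15.5, a range that overlapped that of the Notum-high class. Smoc2 had 0.45 ± 0.18, Msi1 1.06 ± 0.38 and Ascl2 0.32 ± 0.17 as log2 fold change and SE, and the stem cell list had a median of -0.003. Beta-catenin itself, Ctnnb1, had -0.03 ± 0.07 (SE) at a median of 1053.5 CPM in the Notum-high and 1052.5 in the Notum-low class. The 17 members of its complex lay between -0.24 and 0.05.

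**Figure D2:**
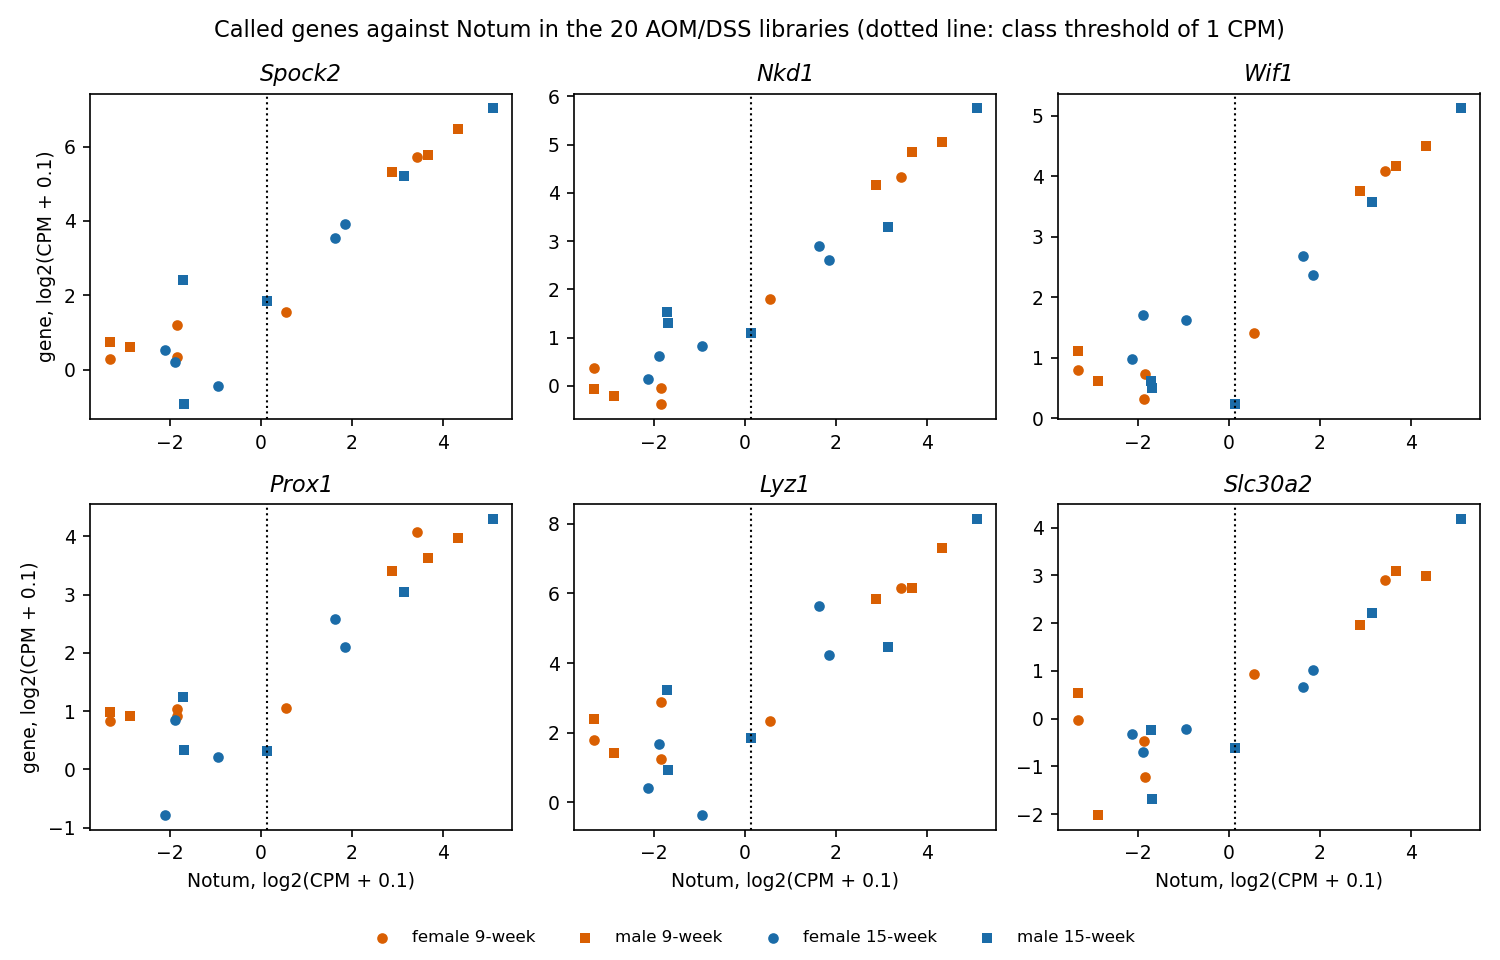
Levels of 6 called genes against Notum in the 20 AOM/DSS libraries, both as log2(CPM + 0.1), with circles for females, squares for males, orange for 9 weeks and blue for 15 weeks. Right of the dotted line, at the class threshold of 1 CPM, the 9 Notum-high libraries reach their highest level in male 15-week replicate 5, the point with the most Notum, in all 6 panels. Left of the line lie the 11 Notum-low libraries.

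Within the Notum-high class most called genes peaked in the same libraries as Notum. Male 15-week replicate 5, the highest in Notum, was also the highest library for 51 of the 58, and 54 of the 58 shared at least 2 of their 3 highest libraries with Notum. These genes were chosen for a difference in Notum, so their order is a description. Near the threshold the classes blurred. In female 9-week replicate 5, just inside, 18 of the 58 genes exceeded all Notum-low libraries and 11 lay at or under the Notum-low median. In male 15-week replicate 3, just outside, 8 exceeded all other Notum-low libraries and 25 lay at or under that median.

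Genes of Paneth cells, the antimicrobial cells of the small intestinal crypt that the mouse colon normally lacks, included 2 of the 58. Lyz1, the Paneth lysozyme (ENSMUSG00000069515, chr10:117287796-117292868, minus strand), ran from 4.90 to 283 CPM with a median of 57.3 in Notum-high and from 0.673 to 9.23 CPM with a median of 3.11 in Notum-low libraries. It had the highest mean FPKM of the 58 genes, 47.0 ± 48.7 FPKM (SD, n = 9) against 2.08 ± 1.42 FPKM (SD, n = 11), with a log2 fold change of 4.24 ± 0.54 (SE, edgeR adjusted p = 3.22e-04). Its near-identical neighbour Lyz2 can share reads with it, which leaves its value uncertain. The alpha-defensin Defa24 (ENSMUSG00000064213, chr8:21734494-21735471, plus strand) ran from 0.343 to 36.2 CPM with a median of 3.40 in Notum-high and from 0 to 1.5 CPM with a median of 0 in Notum-low libraries, with 5.75 ± 0.79 (SE, edgeR adjusted p = 8.01e-04). Alpha-defensin genes are near-identical copies among which reads can be split, so its value is uncertain, as is that of Gm15284, another called gene 0.599 Mb from it. Defa17, Defa21 and Defa22 had too few counts to be tested, with up to 136, 96 and 124 counts in Notum-high and at most 5 in Notum-low libraries. Of 6 tested Paneth genes 2 were called, against 58 of all 15747 tested genes (0.368%). The others had no call, among them Itln1 at 0.91 ± 0.52, Mptx1 at 0.17 ± 0.80 and Ang4 at -0.48 ± 0.64 (log2 fold change and SE).

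Of 14 genes of regenerative and fetal-like epithelium, which injured gut epithelium switches on, 12 had fold changes above 0, with a median of 0.25. Clu had 1.28 ± 0.39 (SE, edgeR adjusted p = 0.530), with medians of 63.9 and 14.8 CPM in the Notum-high and Notum-low class. Ly6a, another gene of this state, had 0.02 ± 0.23 (SE) and medians of 532 and 485 CPM, against 119 in vehicle colons.

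**Figure D3:**
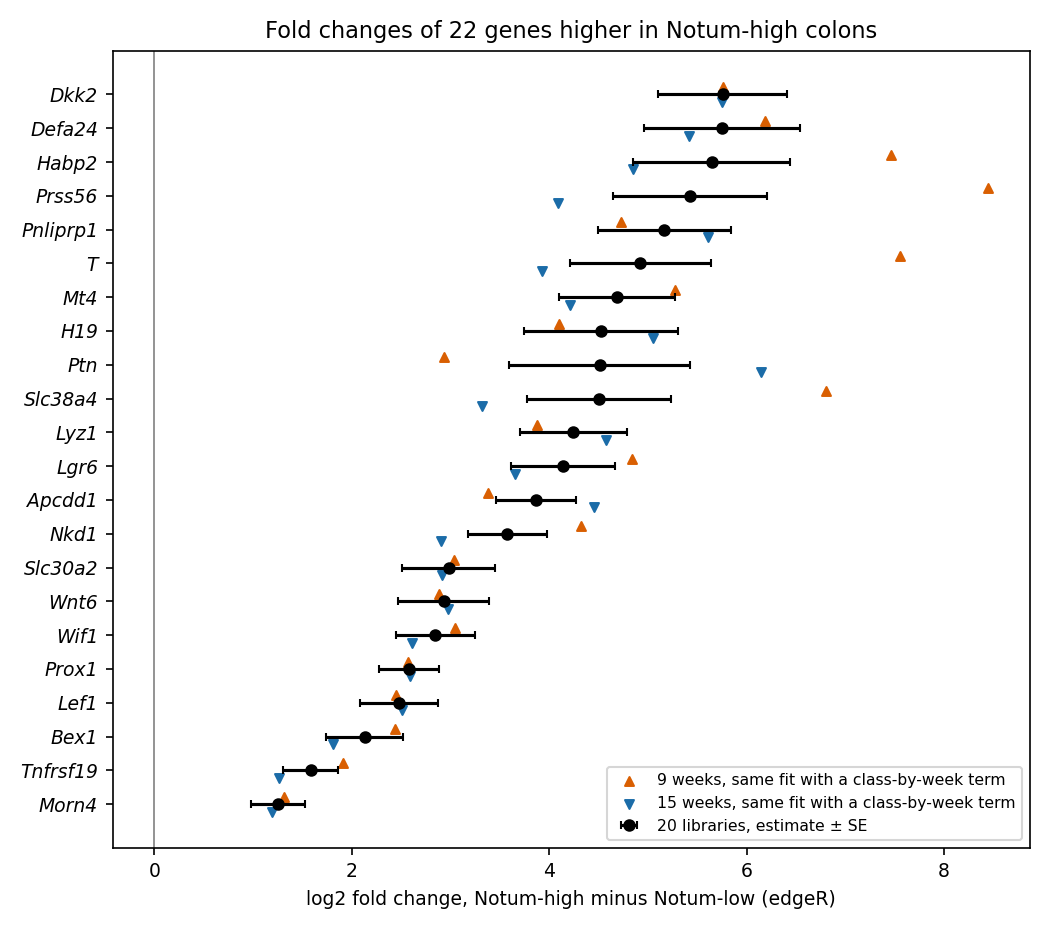
Log2 fold change, Notum-high minus Notum-low, of 22 of the 58 called genes, with the SE over all 20 libraries (black) and the estimates for 9 weeks (orange) and 15 weeks (blue) from a fit with a class-by-week term. All 22 lie above 0 at both times, and over all 20 libraries they run from 1.25 for Morn4 to 5.76 for Dkk2.

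Beside Dkk2 and Defa24, the 10 largest rises among genes with a mean of at least 1 CPM in the Notum-high class and a symbol other than a Gm or Rik name were those of Habp2, Prss56, Pnliprp1, T, Mt4, H19, Ptn and Slc38a4, which are known mainly from other tissues. Pnliprp1, a lipase-related protein of the pancreas, ran from 1.03 to 163.2 CPM with a median of 10.5 in Notum-high and from 0 to 1.71 CPM with a median of 0.183 in Notum-low libraries, with 5.17 ± 0.67 (SE, edgeR adjusted p = 4.14e-04). Its mean was 11.2 ± 22.2 FPKM (SD, n = 9), with male 15-week replicate 5 far above the other libraries at 163.2 CPM. Mt4, a metallothionein of squamous epithelium, ran from 0.684 to 10.9 CPM with a median of 3.50 and from 0 to 0.851 CPM with a median of 0.0341, in that order of classes, with 4.69 ± 0.58 (SE, edgeR adjusted p = 3.01e-04).

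T, the T-box factor Brachyury of the embryonic mesoderm, and Prss56, a serine protease, had no count in any vehicle library. T ran from 0.0490 to 3.29 CPM with a median of 1.21 in Notum-high libraries and reached 0.296 CPM in Notum-low ones, with 4.92 ± 0.72 (SE, edgeR adjusted p = 0.00123). Prss56 ran from 0.0490 to 3.80 CPM with a median of 1.34 and reached 0.274 CPM, with 5.43 ± 0.78 (SE, edgeR adjusted p = 0.00108). Habp2, a secreted protease that binds hyaluronan, was at 0 in female 9-week replicate 5, had a median of 0.689 CPM in the Notum-high class and reached 0.137 in the Notum-low class, with 5.64 ± 0.80 (SE, edgeR adjusted p = 9.65e-04).

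H19, an imprinted RNA of the embryo that encodes no protein, ran from 0.0828 to 3.73 CPM with a median of 2.13 in Notum-high and from 0 to 0.362 CPM with a median of 0 in Notum-low libraries, with 4.52 ± 0.78 (SE, edgeR adjusted p = 0.00719). Slc38a4, an amino acid transporter, had 4.50 ± 0.73 (SE, edgeR adjusted p = 0.00358). Ptn, a heparin-binding growth factor, ran from 0.147 to 8.80 CPM with a median of 3.26 against from 0 to 2.14 CPM with a median of 0.0443, with 4.51 ± 0.92 (SE, edgeR adjusted p = 0.0307), and only 5 of 9 Notum-high libraries exceeded every Notum-low one. Its vehicle libraries had a median of 0.129 CPM and reached 12.5, above every Notum-high library.

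Among genes without overlap, Slc30a2, a zinc transporter of secretory cells, ran from 1.49 to 18.03 CPM with a median of 4.52 in Notum-high and from 0.146 to 1.34 CPM with a median of 0.621 in Notum-low libraries, with 2.98 ± 0.47 (SE, edgeR adjusted p = 0.00286). Bex1, a small protein known from neurons, ran from 1.32 to 6.08 CPM with a median of 1.995 and from 0.0684 to 1.30 CPM with a median of 0.439, with 2.13 ± 0.39 (SE, edgeR adjusted p = 0.0136). Here vehicle colons, from 1.40 to 3.08 CPM with a median of 2.28, all lay above every Notum-low library. Morn4 had the smallest change of the 58 at 1.25 ± 0.27 (SE, edgeR adjusted p = 0.0493), with 0.523 to 0.876 CPM against 0.0684 to 0.444. Its vehicle libraries, from 0.316 to 1.25 CPM with a median of 0.569, overlapped both classes.

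The remaining 35 called genes were not picked by the rule for named genes, and those given here were chosen after their values were seen. Spock2, a proteoglycan of the extracellular matrix, had the smallest p of all genes. It ran from 2.84 to 131 CPM with a median of 39.5 in Notum-high and from 0.42 to 5.20 CPM with a median of 1.35 in Notum-low libraries, with 4.45 ± 0.47 (SE, edgeR adjusted p = 9.89e-05) and 6.50 ± 5.34 FPKM (SD, n = 9) against 0.225 ± 0.175 FPKM (SD, n = 11). Vehicle libraries had a median of 1.31 CPM of Spock2 and reached 8.34 in male vehicle replicate 1, above the lowest Notum-high library. Other genes of the extracellular matrix were Sbspon at 5.69, Thbs2 at 3.29 and Mgp at 2.28 on the log2 scale. Thbs2 and Mgp reached 21.6 and 27.9 CPM in a vehicle library, above every Notum-high library.

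Signalling genes were the adenylyl cyclases Adcy1 at 2.65 and Adcy8 at 3.38, the growth factor Gdf11 at 1.74, the receptor phosphatase Ptprz1 at 3.51 and the kinase Mapk4 at 2.63, all on the log2 scale. Gdf11 ran from 1.13 to 11.1 CPM with a median of 5.80 in Notum-high and from 0.505 to 2.12 CPM with a median of 1.30 in Notum-low libraries. Transcription factors were Msx1 at 3.30 and Onecut2 at 3.24. Enzymes and secreted proteins included Plat, the tissue plasminogen activator, at 2.11, Cfi, a protease of complement, at 2.49, Padi4 at 3.09, Alox12 at 2.86 and Gulo, of vitamin C synthesis, at 4.96. Stra6, a receptor for the retinol carrier, at 2.12, and Krt17, a keratin of squamous epithelium, at 4.25, were the others with a role given here. Plat, Morn4, Cfi, Padi4 and Esyt3 were the least steady, called in 3 to 5 of the 20 fits that each left out 1 library.

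Notumos, a transcript on the opposite strand of the Notum locus, was called with 4.10 ± 0.78 (SE, edgeR adjusted p = 0.0171). Its annotated span, chr11:120659157-120661815, plus strand, overlaps that of Notum, the gene that chose the classes, and counting by strand was not stated in the sources used here. It is therefore not separate from the choice of the libraries. Besides it, 10 of the 58 genes lay within 1 Mb of another called gene, in 5 pairs and with no overlap: Dkk2 and Lef1, Apcdd1 and 2700046A07Rik, Adcy1 and Gm11978, Slc44a5 and Erich3, and Defa24 and Gm15284. Dkk2 and Lef1 were 0.861 Mb apart on chromosome 3.

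Promoters of the called genes were searched for some forms of the letters bound by the TCF and LEF proteins. The reason was that several members are known targets of these factors. The letters were CTTTGAT and CTTTGTT on both strands, from 250 bases before to 50 after the start site in RefSeq (GRCm38.p6), where 39 of the 58 genes had an entry. A gene with several start sites counted once, where any of its windows matched. Matches were found in 3 of 39 genes (7.69%), against 848 of 11007 tested genes with an entry (7.70%). By window the shares were 3 of 49 (6.12%) and 920 of 14035 (6.56%). With 3 matching genes the search cannot show whether the called genes differ from genes in general. The 3 matches are shown with 11 bases on either side, on the strand of the gene, with the matching letters in capitals.
Tnfrsf19 (chr14:61038172-61038200, minus strand): ctgaatgggggATCAAAGtgacaaactag
Stra6 (chr9:58129193-58129221, plus strand): gaaactcagccATCAAAGccctggcttct
Erich3 (chr3:154710906-154710934, plus strand): tagccaaaatcCTTTGTTagtttttagta
In Tnfrsf19 and Stra6 the match read in reverse complement. The first base of the match lay 202 bases before the start site of its window in Tnfrsf19, 145 in Stra6 and 216 in Erich3. These starts lie inside the annotated gene spans, which begin at chr14:61046855, chr9:58063788 and chr3:154663859 on the strand of the gene. The Tnfrsf19 window at chr14:61046806-61047105 and the other windows of Stra6 held no match. Nkd1, Wif1, Prox1, Lef1 and Dkk2 had an entry and no match in it, which says only that the window lacks these letters.

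The class difference had the same direction at both times for each of the 22 called genes in the plot of fold changes. No gene had a called difference between the class effect at 15 and at 9 weeks by edgeR, with 1017 at an unadjusted p under 0.05, and none between males and females, with 392. In a fit with a class-by-week term, the log2 fold change of Nkd1 was 4.32 ± 0.55 at 9 weeks and 2.91 ± 0.48 at 15 weeks (SE, edgeR adjusted p of the difference = 0.709). For Prox1 it was 2.57 ± 0.45 and 2.59 ± 0.43 (SE), nearly the same. Slc38a4, at 6.81 ± 1.12 and 3.31 ± 0.81 (SE), was the 1 of these 22 genes whose difference between times had an unadjusted p under 0.05, and its edgeR adjusted p was 0.709.

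Between the sexes, Wif1 had a log2 fold change of 1.85 ± 0.50 in females and 3.74 ± 0.33 in males in fits of each sex alone (SE, edgeR adjusted p of the difference in the joint fit = 0.997). Lef1 had 1.69 ± 0.54 and 3.23 ± 0.43 (SE, edgeR adjusted p of the difference = 0.997). Unadjusted, the edgeR p of the difference was 0.00779 for Wif1 and 0.0455 for Lef1, among 392 of all tested genes under 0.05. In fits of 10 libraries each, 25 genes were called higher in males and 0 in females, and 9 at 9 weeks and 0 at 15 weeks. The highest female Notum value was 10.6 CPM and the highest male value 34.1.

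**Figure D4:**
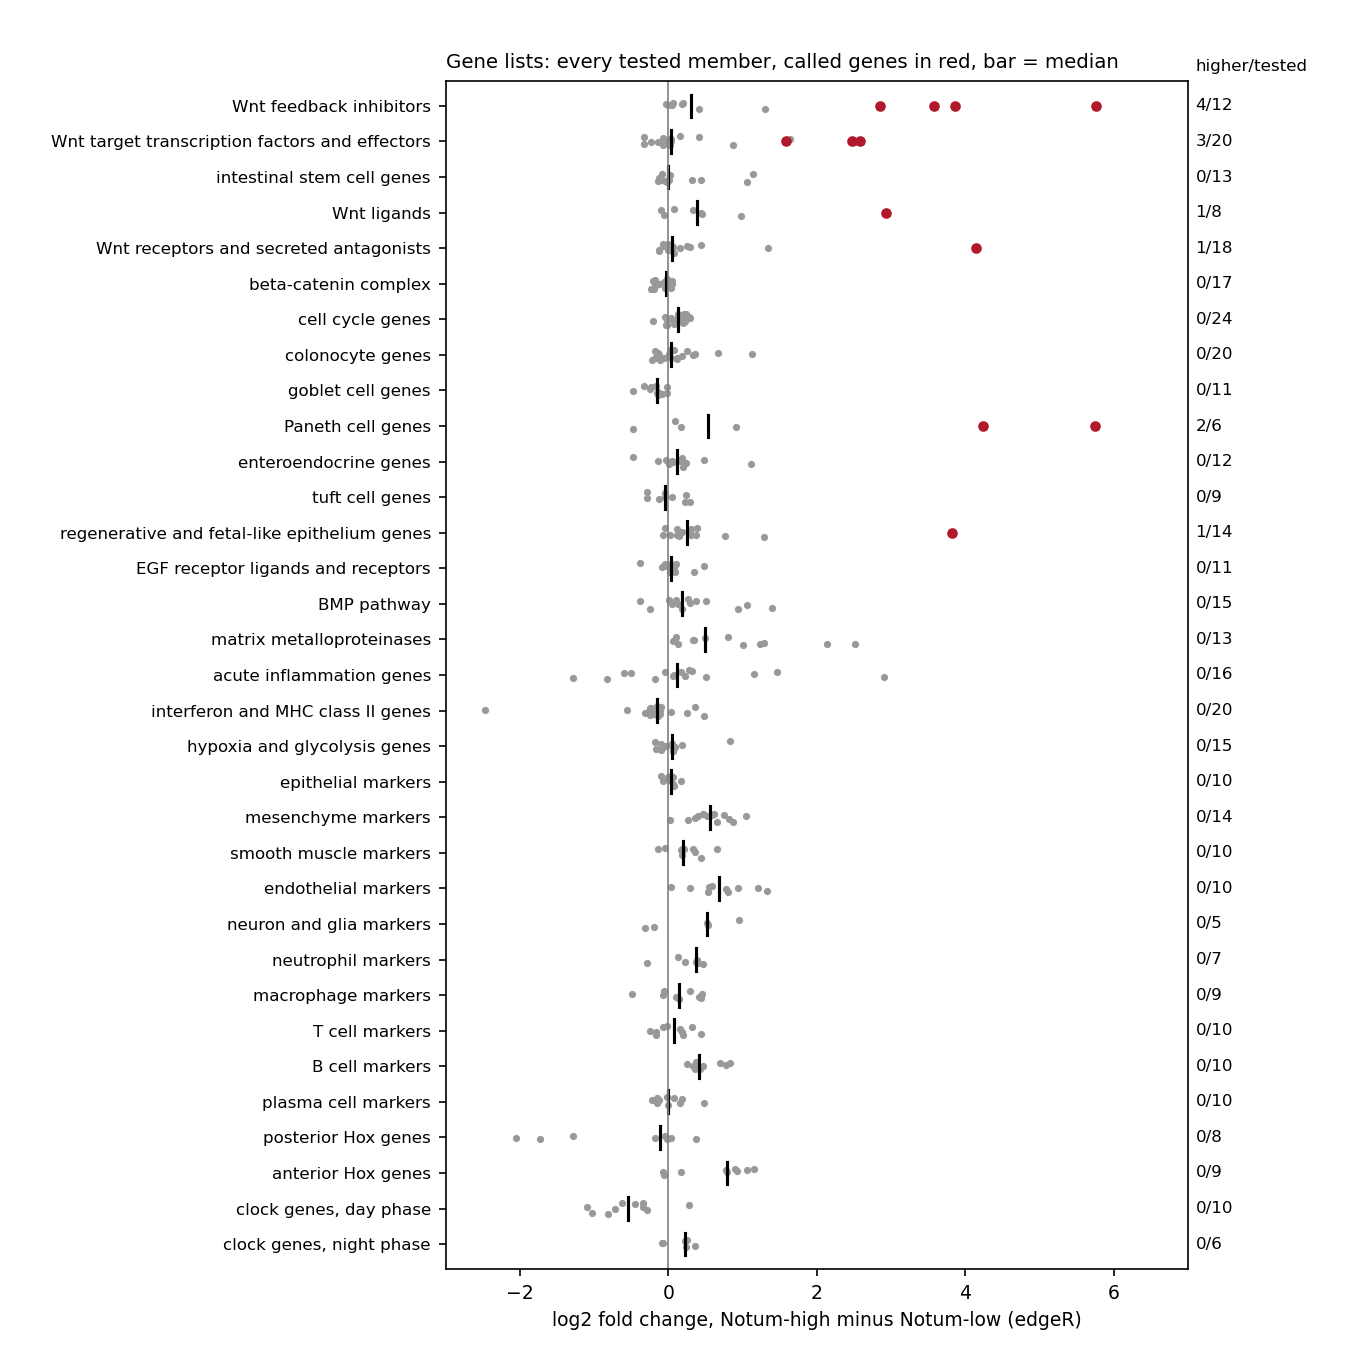
Log2 fold change, Notum-high minus Notum-low, of every tested gene of 33 lists, with called genes in red, the list median as a bar and the number called over the number tested at the right. The 12 red points fall in 6 lists, and the medians lie between -0.54 and 0.79.

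Across 33 lists with 400 tested genes, 12 genes in 6 lists were called. Over all tested genes 58 of 15747 were called (0.368%). At that share a short list with no call says little about its genes. The lists were written with earlier results of these data known, so their counts are descriptions and not tests. Proliferation differed little: 19 of 24 cell cycle genes had fold changes above 0, with a median of 0.13 and none called. Mki67 and Top2a, both of dividing cells, had 0.08 ± 0.18 and 0.14 ± 0.18 (log2 fold change and SE). The colonocyte, goblet, enteroendocrine and tuft cell lists had no call either. The carbonic anhydrase Car1 of surface colonocytes had 0.67 ± 0.54, the keratin Krt20 -0.05 ± 0.12 and the enteroendocrine granule protein Chgb 0.19 ± 0.25 (log2 fold change and SE). The medians were 0.03 over 20 colonocyte genes, -0.15 over 11 goblet cell genes, 0.11 over 12 enteroendocrine genes and -0.04 over 9 tuft cell genes. All 11 goblet cell genes had fold changes under 0, the mucin Muc2 at -0.16 ± 0.19 and Clca1 at -0.24 ± 0.25 (SE), with a smallest edgeR adjusted p of 0.984 in the list. Muc2 had medians of 7805 CPM in the Notum-high and 10017 in the Notum-low class.

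Growth factor, matrix and stress lists also had no call. The medians were 0.03 over 11 EGF receptor ligands and receptors, 0.19 over 15 BMP pathway genes, 0.49 over 13 matrix metalloproteinases and inhibitors, and 0.05 over 15 hypoxia and glycolysis genes. All 13 tested genes of the metalloproteinase list had fold changes above 0, with Mmp7 the nearest to the threshold. Inflammation lists were without a call as well, at 0.12 over 16 acute inflammation genes and -0.16 over 20 interferon and MHC class II genes. Reg3b and Reg3g, antimicrobial lectins, had 0.23 ± 0.65 and 0.17 ± 0.60, and Cd74 of the MHC class II pathway -0.25 ± 0.45 (SE). Lcn2, an antimicrobial iron-binding protein, had 2.90 ± 0.82 and Ifng -2.46 ± 0.73 (SE, edgeR adjusted p = 0.338 and 0.455).

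Markers of other cell types were checked because a scraping can carry more than epithelium, and none was called. With 0.368% of all tested genes called, this does not show that these cells were equal in the 2 classes. All 14 mesenchyme markers had fold changes above 0, with a median of 0.56. Their summed level was 69.7 to 574 CPM with a median of 258 in Notum-high libraries, 34.2 to 377 with a median of 166.4 in Notum-low, and 43.2 to 2025 in vehicle libraries. Col3a1 and Fn1, matrix proteins of fibroblasts, had 0.59 ± 0.43 and 0.82 ± 0.43 (SE). Vim had the lowest p among the markers, at 1.05 ± 0.32 (SE, edgeR adjusted p = 0.514). All 10 endothelial markers were above 0, with a median of 0.69 and sums of 14.9 to 71.2 against 7.03 to 54.5 CPM. All 10 B cell markers were above 0 too, with a median of 0.41 and sums of 8.78 to 114.4 against 1.98 to 148 CPM. The ranges of the classes overlapped for each of these lists, and the part of these cells in the 58 calls was not tested beyond the covariate given above.

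The other cell lists had no call either. Medians were 0.03 over 10 epithelial markers, 0.20 over 10 smooth muscle, 0.52 over 5 neuron and glia, 0.38 over 7 neutrophil, 0.14 over 9 macrophage, 0.07 over 10 T cell and -0.01 over 10 plasma cell markers. The epithelial sum was 10554 to 16918 CPM in Notum-high and 9562 to 14490 in Notum-low libraries, so no library of either class lacked them. Krt8, a keratin of simple epithelium, had 0.06 ± 0.11 (log2 fold change and SE). Male vehicle replicate 1, the vehicle library highest in Nkd1, Dkk2, Lef1, Lgr6 and Spock2, stood apart with 6560 CPM of smooth muscle markers, and it is in neither class.

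Genes that mark position along the colon and the time of day differed in median and not in calls. Over 9 tested anterior Hox genes the median was 0.79, with sums of 64.3 to 218 CPM in Notum-high and 30.5 to 194 in Notum-low libraries. Over 8 posterior Hox genes it was -0.11, with 30.7 to 339 against 36.1 to 459 CPM, and Hoxd10 and Hoxd11 had medians of 0.0407 and 0.0414 CPM in the Notum-high against 0.725 and 0.689 in the Notum-low class. Of 10 clock genes of the day phase 9 had fold changes under 0, with a median of -0.54 and Per2 at -0.81 ± 0.35 (SE, edgeR adjusted p = 0.984), and 6 of the night phase had a median of 0.23. Whether the piece of colon scraped or the hour of death had a part in the calls was not tested beyond the posterior Hox covariate, under which 53 of the 58 stayed called.

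**Figure D5:**
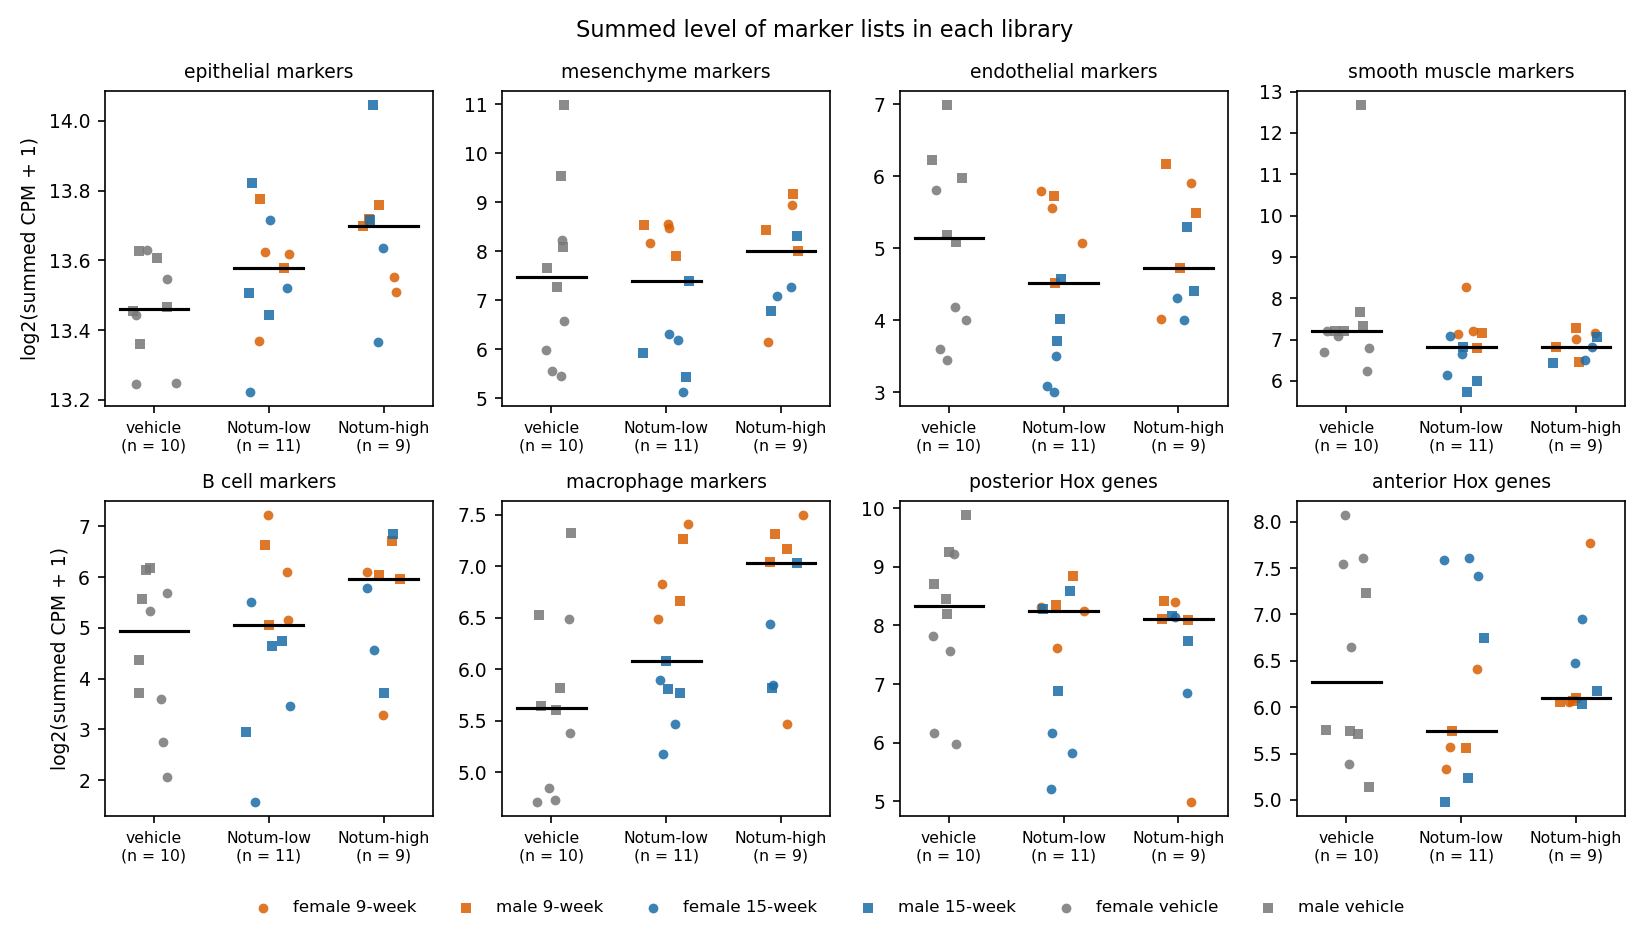
Summed CPM of 8 marker lists in each of the 30 libraries, as log2(summed CPM + 1), by class, with a bar at the median, circles for females and squares for males. The classes overlap in all 8 panels, and the Notum-high median lies above the Notum-low one for epithelial, mesenchyme, endothelial, B cell, macrophage and anterior Hox genes.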

How the data were processed

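Poly(A)-selected stranded RNA libraries of colon scrapings were analysed, 20 from AOM/DSS mice and 10 from vehicle mice, grouped by the authors' labels. The authors aligned reads to GRCm38 (mm10) with STAR and counted them with featureCounts, the submitters' processing notes also list Trim Galore, and the deposited counts are raw, for 46078 genes. Removal of duplicate reads is not given in the sources used here, and without molecular identifiers 1 count is not 1 molecule. The deposited FPKM values are the authors' StringTie estimates, 1 file per library, with lines of a repeated gene added. The deposited TPM values of the same files, also the authors' StringTie estimates, were not used. Gene positions are those in the authors' files.

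Total counts were 9265804 to 30806392 per library, and no pair of libraries within a group agreed to within counting noise. Notum CPM set the classes at 1 CPM. Counts of the 20 AOM/DSS libraries were fitted with edgeR 4.0.16 in R 4.3.3 (filterByExpr, TMM factors of 0.838 to 1.07, quasi-likelihood F test) with study group and class as terms, on 15748 genes including Notum. The SE of an edgeR log2 fold change was derived from the test, as its absolute value over the square root of the F statistic. The common biological coefficient of variation was 0.292. The thresholds were an adjusted p of 0.05 and a log2 fold change of 0.4. DESeq2 1.42.0 was an alternative, as were other scalings, filters, Notum thresholds, covariates, single times or sexes, a replicate block and each library left out. The filter keeps a gene that is expressed only where Notum is high, so tested list members are not all members. The fit was tested on simulated data.

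Named genes were the markers, the called genes of each list (up to 6, or the 2 most abundant where none was called), the 10 largest rises with a mean of 1 CPM and a symbol other than a Gm or Rik name, and called genes without overlap. List genes named beyond these were chosen for their role or for a low p after values were seen. The members, markers, lists and tests were chosen with earlier results of these data known. The values of 1 called gene are not reported here.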

Additional observations from a re-analysis of the deposited data

Results flagged for a closer look

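Sets of 5 or 9 libraries were checked for a lone extreme value, by a rule that marks about 1 in 20 unrelated sets by chance. These sets shared libraries and held genes called for moving with Notum, so that rate cannot be applied to them. Of 29 sets 8 held a lone extreme value. In 7 of them male 15-week replicate 5, the library with the most Notum, stood far above the other Notum-high libraries. It held 2.79 CPM of Lgr6 against a median of 0.490 in the class, 163.2 CPM of Pnliprp1 against 10.5, and 36.2 CPM of Defa24 against 3.40. It also held 3.29 CPM of T against 1.21, 4.50 CPM of Wnt6 against 1.33, 18.03 CPM of Slc30a2 against 4.52 and 6.08 CPM of Bex1 against 1.995. All 7 genes stayed called without this library. In the vehicle males, replicate 1 held 7.91 CPM of Nkd1 against a median of 1.03, and the same library held the most smooth muscle RNA of all 30.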

How the results depend on the processing

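Of 58 genes higher in Notum-high colons, the count was 93 with DESeq2 (57 of the 58 among them), 98 without the filter on low counts (57), 23 at a Notum threshold of 0.5 CPM (23), 34 with the mesenchyme and 32 with the epithelial covariate, 9 at 9 weeks alone, 0 at 15 weeks alone, 0 in females alone, 25 in males alone (23) and 19 with an FPKM minimum of 1. At 15 weeks alone 462 and in females alone 113 genes had an unadjusted p under 0.05 in edgeR, and 33 and 35 of the 58 were not tested there. Leaving out 1 library gave 38 to 95 genes, 34 to 57 of them among the 58, and 31 of the 58 were called in all 20 such fits. Other scaling, a threshold of 2 CPM, Notum as a number, no study group, all 30 libraries, the posterior Hox covariate and adjusted p alone gave 56 to 83. None was lower except 1 gene each with the mesenchyme covariate (Ifng), at 9 weeks alone (Inpp5f) and in males alone (Per2). In every fit of 19 or more libraries the 58 kept a positive fold change. Genes named without a call, such as Car1, changed sign in some settings. The threshold of 0.5 CPM moved only male 15-week replicate 3, at 0.999 CPM of Notum, into the Notum-high class. That of 2 CPM, with 83 genes called, moved only female 9-week replicate 5, at 1.37 CPM, into the Notum-low class. Beyond these changes of class, the cause of the shifts in the counts was not tested.

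With the replicate number as a block 29 genes were higher, all among the 58. Same-numbered libraries did not deviate together (30 pairs, r from -0.586 to 0.208, 2 over 0.1), and 1 of 20 libraries correlated best with its own number, so the numbers pair nothing here. Depth limits the scarce genes: 1 CPM was 14.6 to 30.8 counts, and the 46078 genes of the table fell to 15748 by the filter.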
